A study of Mus musculus with 9 samples.

Results

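Csrnp2, Ppp1r10, Gem, Arl4d, Adamts1 and Epha2 are 6 mouse genes that were chosen on measured values of these libraries. The rule took genes with a higher level in CD11b+ cells of mice given OAT-1746 than in controls, and a lower level in mice given OAT-1746 with an anti-PD-1 antibody than in mice given the antibody alone. They are 6 of 53801 genes in the count table, and each of the 6 had enough counts to be tested. None of them is on the list of 42 immediate early genes used here, which is all that separates them from the immediate early genes with a similar course. Gem itself was first described as a gene induced by mitogens in T cells, so the absence from that list says nothing of how fast any of the 6 responds to a stimulus.

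The study implanted GL261 mouse glioma cells into the brains of male C57BL/6J mice of 10 to 12 weeks and asked how an arginase inhibitor, OAT-1746, acts alone and with checkpoint blockade. CD11b+ cells of the tumor-bearing hemisphere, mostly myeloid cells with some NK cells among them, were sorted by flow cytometry, and strand-specific poly-A RNA-seq was run on 9 bulk libraries. The controls (CTR, 2 libraries) received saline, the OAT-1746 group (2 libraries) received the inhibitor by mouth at 50 mg/kg, the anti-PD-1 group (2 libraries) received the antibody into the peritoneum at 2.5 mg/kg, and the COMB group (3 libraries) received both agents. The methods give day 28 after implantation for the collection of these cells, while a legend gives day 21. In the labels, the treatment of anti-PD-1 replicate 2 reads anti-PD-2 while the library's title names anti-PD-1, so the differences of the 6 genes, and many of the other values that rest on it, are given with and without it. Each library is described as a biological replicate. A bulk library cannot tell fewer expressing cells from less RNA in each cell.

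The 6 proteins work in different parts of the cell. Csrnp2 belongs to a small family of cysteine- and serine-rich nuclear proteins, and Ppp1r10 (PNUTS) anchors protein phosphatase 1 in the nucleus, in a complex with Wdr82 and Tox4 that acts on transcribing RNA polymerase. Gem is a GTP-binding protein of the RGK family, known for holding back voltage-gated calcium channels, and Arl4d is an ARF-like GTPase that brings cytohesins, the exchange factors of ARF6, to the plasma membrane. Adamts1 is a secreted metalloproteinase that cleaves the matrix proteoglycans versican and aggrecan, and Epha2 is a receptor tyrosine kinase for A-type ephrins on neighboring cells. Several genes with short, stimulus-dependent transcription carry binding sites for CREB/ATF, AP-1, EGR, serum response factor or NF-kB near their start, which is the reason for showing promoters here.

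In GRCm38, Csrnp2 (ENSMUSG00000044636) lies on the minus strand at chr15:100479570-100495488 and Adamts1 (ENSMUSG00000022893) on the minus strand at chr16:85793827-85803113. On the plus strand lie Ppp1r10 (ENSMUSG00000039220) at chr17:35916434-35932283, Gem (ENSMUSG00000028214) at chr4:11704457-11714752, Arl4d (ENSMUSG00000034936) at chr11:101665541-101667832 and Epha2 (ENSMUSG00000006445) at chr4:141301240-141329384. Counts were made over the exons of each gene. The annotation places 1 other gene over any of them, the microRNA gene Mir1894 within Ppp1r10 on the same strand, and it had 0 counts in every library.

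RefSeq promoters of GRCm38.p6, 250 bases before to 50 bases after a transcript's start, were matched for 5 of the 6 genes, with 2 starts for Ppp1r10. Gem is named only. Motifs were searched on both strands in these 6 windows and in all 32851 windows of the same length. The full cAMP response element (CRE), TGACGTCA, was found in the promoters of 2 of these 5 genes, Arl4d at −26 to −19 from the start and Epha2 at −33 to −26, and in 1.79% of all windows. The core of that element, TGACG, which every full CRE holds on both strands, was found in 3 of the 5 genes, which are Arl4d (also at −228 to −224 on the other strand), Epha2 and Adamts1 (at −170 to −166), and in 20.8% of all windows. The 46 windows of immediate early genes held the core in 28 and the full CRE in 5, so neither is particular to these genes. Within the 150 bases nearest the start, the core was found in 2 of the 5 genes, and in 13.9% of all windows. The promoters of these 3 genes are printed because they are the ones that hold these letters, with the CRE and its core in capitals. Arl4d is read on the plus strand at chr11:101665291-101665590, Epha2 on the plus strand at chr4:141300971-141301270 and Adamts1 on the minus strand at chr16:85803064-85803363, each from 5′ to 3′.
Arl4d: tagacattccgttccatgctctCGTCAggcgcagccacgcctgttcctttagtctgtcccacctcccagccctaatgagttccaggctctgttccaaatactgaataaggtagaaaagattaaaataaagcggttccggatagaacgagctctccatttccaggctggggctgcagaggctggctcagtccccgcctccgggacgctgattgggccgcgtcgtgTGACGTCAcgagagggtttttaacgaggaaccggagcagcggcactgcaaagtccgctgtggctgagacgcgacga
Epha2: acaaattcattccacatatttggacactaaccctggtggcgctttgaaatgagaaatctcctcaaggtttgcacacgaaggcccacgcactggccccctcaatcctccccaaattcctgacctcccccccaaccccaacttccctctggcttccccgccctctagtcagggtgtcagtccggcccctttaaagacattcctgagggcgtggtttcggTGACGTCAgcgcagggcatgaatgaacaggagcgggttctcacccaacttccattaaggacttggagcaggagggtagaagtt
Adamts1: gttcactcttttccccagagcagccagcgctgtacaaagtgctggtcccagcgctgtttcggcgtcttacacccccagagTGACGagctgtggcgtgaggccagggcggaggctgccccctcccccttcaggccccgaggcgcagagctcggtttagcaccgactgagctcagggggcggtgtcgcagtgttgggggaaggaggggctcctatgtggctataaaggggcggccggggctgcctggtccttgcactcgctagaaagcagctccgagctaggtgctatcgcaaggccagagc

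Other motifs were searched in the same windows. A TATA box, TATAAA, stood at −32 to −27 from the Adamts1 start and at −242 to −237 from the first Ppp1r10 start, while 13.6% of all windows held one. The AP-1 site TGANTCA (7.81% of all windows), the EGR site GCGNGGGCG (5.55%), the CArG box (1.63%) and the kappaB site (8.46%) were found in 0 of the 5 genes. A match says only that these letters are in the window, and their absence says nothing of the factor.

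Between 13048075 (COMB replicate 1) and 18796479 (anti-PD-1 replicate 2) read pairs were counted per library. OAT-1746 replicate 2 stood apart from the rest. Across the 12538 tested protein-coding genes, the Pearson's r of log2 CPM between it and any other library was at most 0.956, and between any others at least 0.960. The differences of the 6 genes, and many of the other values that rest on it, are therefore also given without it. Levels are CPM (counts scaled to a common library size by edgeR's TMM), and the groups differ in size, so a mean rests on 2 or 3 libraries.

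Of the nuclear proteins, Csrnp2 had the fewest counts of the 6 genes, 14 to 205 in a library. It had 1.68 and 1.47 CPM in CTR replicates 1 and 2, 4.71 and 11.7 in OAT-1746, 2.93 and 4.85 in anti-PD-1, and 1.04, 1.32 and 1.35 in COMB. Every OAT-1746 library lay above every CTR library and every COMB library lay below them, while anti-PD-1 replicate 2 reached the level of OAT-1746 replicate 1. The group means were 1.58 ± 0.149 CPM for CTR, 8.22 ± 4.96 for OAT-1746, 3.89 ± 1.36 for anti-PD-1 (SD, n = 2 each) and 1.24 ± 0.171 for COMB (SD, n = 3). With 14 to 20 counts in each COMB library, counting error limits how finely Csrnp2 can be placed there.

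Ppp1r10, the phosphatase anchor, had the most counts, 846 to 9159. Its level was 107 and 91.7 CPM in CTR, 279.7 and 524 in OAT-1746, 111 and 191 in anti-PD-1, and 66.7, 61.4 and 60.0 in COMB. The OAT-1746 libraries were the highest and the COMB libraries the lowest, with no overlap between any of the 4 groups, although anti-PD-1 replicate 1 lay only just above CTR. The COMB libraries were close together (62.7 ± 3.54, SD, n = 3), whereas the OAT-1746 libraries differed 1.87-fold from each other (402 ± 173, SD, n = 2).

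The small GTPase Gem had 12.3 and 12.5 CPM in CTR, 43.0 and 101 in OAT-1746, 15.6 and 29.4 in anti-PD-1, and 10.5, 11.7 and 8.79 in COMB. The groups did not overlap, with CTR and COMB close to each other (12.4 ± 0.11, SD, n = 2, and 10.4 ± 1.49, SD, n = 3) and OAT-1746 far above. Arl4d, the cytohesin-binding GTPase, had 6.07 and 7.76 CPM in CTR, 22.5 and 38.2 in OAT-1746, 7.67 and 13.2 in anti-PD-1, and 2.74, 4.55 and 2.84 in COMB. For Arl4d, anti-PD-1 replicate 1 lay between the CTR libraries, so that these groups overlapped. The COMB libraries were the lowest, at 3.38 ± 1.02 CPM (SD, n = 3) against 6.92 ± 1.2 (SD, n = 2) in CTR.

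Adamts1, the matrix metalloproteinase, had another order of libraries. Its level was 21.7 and 22.0 CPM in CTR, 52.4 and 73.6 in OAT-1746, 69.4 and 41.9 in anti-PD-1, and 20.1, 8.45 and 14.6 in COMB. The OAT-1746 and anti-PD-1 libraries overlapped, at means of 63.0 ± 15.0 and 55.6 ± 19.5 CPM (SD, n = 2 each), and both groups lay above CTR (21.9 ± 0.180, SD, n = 2). It was the 1 gene of the 6 for which anti-PD-1 replicate 1 lay above replicate 2. Its COMB libraries also spread the most, 2.38-fold from lowest to highest.

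The receptor Epha2 had 49.4 and 63.2 CPM in CTR, 165 and 259.9 in OAT-1746, 55.0 and 92.4 in anti-PD-1, and 47.7, 34.8 and 31.5 in COMB. As for Arl4d, anti-PD-1 replicate 1 lay between the CTR libraries. The group means were 56.3 ± 9.76 CPM for CTR, 212.7 ± 66.8 for OAT-1746, 73.7 ± 26.4 for anti-PD-1 (SD, n = 2 each) and 38.0 ± 8.53 for COMB (SD, n = 3), so the distance between CTR and COMB was small beside that to OAT-1746.

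**Figure D1:**
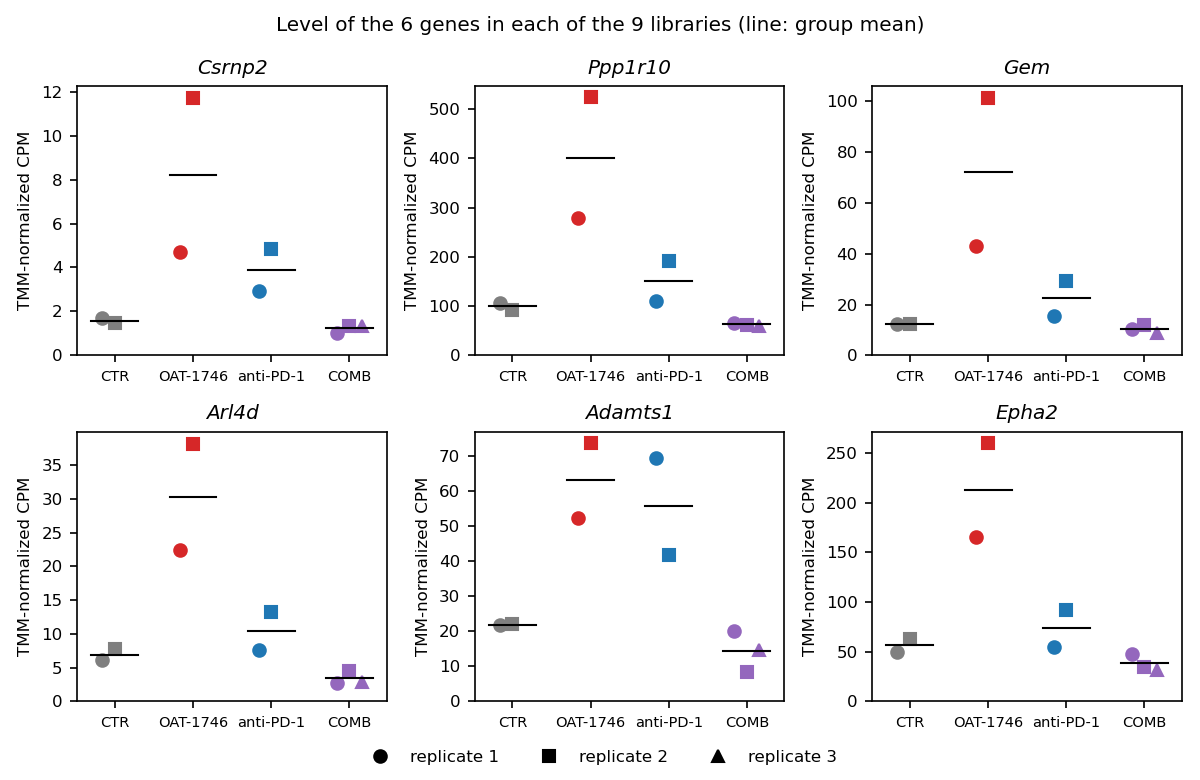
TMM-normalized CPM of the 6 genes in each of the 9 libraries, by group, with the replicate as marker shape and the group mean as a line. OAT-1746 replicate 2 was the highest library for each gene, and the 3 COMB libraries were the lowest.

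Put per length, as CPM per kilobase of exon, the levels in CTR ran in the order Ppp1r10 (17.6), Epha2 (12.04), Gem (5.89), Arl4d (5.00), Adamts1 (4.13) and Csrnp2 (0.36). In OAT-1746 the same order held at 71.5, 45.5, 34.3, 21.9, 11.9 and 1.88 CPM per kilobase. In anti-PD-1 it was Ppp1r10 (26.9), Epha2 (15.8), Gem (10.7), Adamts1 (10.5), Arl4d (7.54) and Csrnp2 (0.888). In COMB it was Ppp1r10 (11.1), Epha2 (8.14), Gem (4.92), Adamts1 (2.71), Arl4d (2.44) and Csrnp2 (0.282). Some neighbors in these orders differed by less than the distance between the highest and lowest library of 1 of the genes. In CTR this held for Gem and Arl4d and for Arl4d and Adamts1, and in OAT-1746 for every pair of neighbors but Adamts1 and Csrnp2. In anti-PD-1 it held for every pair of neighbors but Arl4d and Csrnp2. In COMB it held for Ppp1r10 and Epha2, Epha2 and Gem, and Adamts1 and Arl4d.

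The plot of levels by library shows 1 order of group means for each of the 6 genes, which was OAT-1746, anti-PD-1, CTR and COMB from high to low. The choice of the genes sets part of this order. The places of OAT-1746 above CTR and of COMB below anti-PD-1 were the rule, and the choice also favors genes that happened to be low in CTR, high in anti-PD-1 and low in COMB. Every OAT-1746 library lay above every CTR library for 6 of 6 genes (30.8% of all tested genes), and every COMB library below every anti-PD-1 library for 6 of 6 (16.4% of all tested genes). Nothing is read from these shares, as the rule used both contrasts.

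The differences that chose the genes are given as a description, without a test. Between OAT-1746 and CTR the fitted log2 difference of Csrnp2 was 2.38 ± 0.47 (SE) and that of Ppp1r10 2.02 ± 0.33. It was 2.54 ± 0.41 for Gem, 2.13 ± 0.37 for Arl4d, 1.53 ± 0.37 for Adamts1 and 1.92 ± 0.32 for Epha2. Without OAT-1746 replicate 2 the same differences were 1.59, 1.51, 1.81, 1.71, 1.27 and 1.57, in the order of the genes above. Each difference was smaller without that library, and replicate 1 alone lay above both CTR libraries for each gene. Over all 12538 tested genes, edgeR's quasi-likelihood test called 0% (0 genes) in this contrast at an adjusted p under 0.05, with 4049 genes at an unadjusted p under 0.05 and 1925 called by DESeq2.

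Between COMB and anti-PD-1 the log2 difference was −1.65 ± 0.43 (SE) for Csrnp2, −1.27 ± 0.28 for Ppp1r10 and −1.12 ± 0.36 for Gem. It was −1.62 ± 0.34 for Arl4d, −1.95 ± 0.34 for Adamts1 and −0.96 ± 0.28 for Epha2. Leaving out anti-PD-1 replicate 2, the library with the differing treatment label, moved 5 of these values toward 0, to −1.23 for Csrnp2, −0.82 for Ppp1r10, −0.59 for Gem, −1.17 for Arl4d and −0.53 for Epha2. Adamts1 moved away from 0, to −2.27. Over all tested genes edgeR called 0% (0 genes) between COMB and anti-PD-1, with 907 at an unadjusted p under 0.05 and 45 called by DESeq2.

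The interaction, the effect of OAT-1746 with the antibody minus its effect without it, follows from these contrasts. It was −4.03 for Csrnp2, −3.29 for Ppp1r10, −3.67 for Gem, −3.75 for Arl4d, −3.48 for Adamts1 and −2.87 for Epha2 on the log2 scale. Without OAT-1746 replicate 2 it lay between −3.30 (Arl4d) and −2.49 (Epha2), and without anti-PD-1 replicate 2 between −3.79 (Adamts1) and −2.44 (Epha2). The order of the genes changed with the library left out, so the size of the interaction does not rank the 6 genes.

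**Figure D2:**
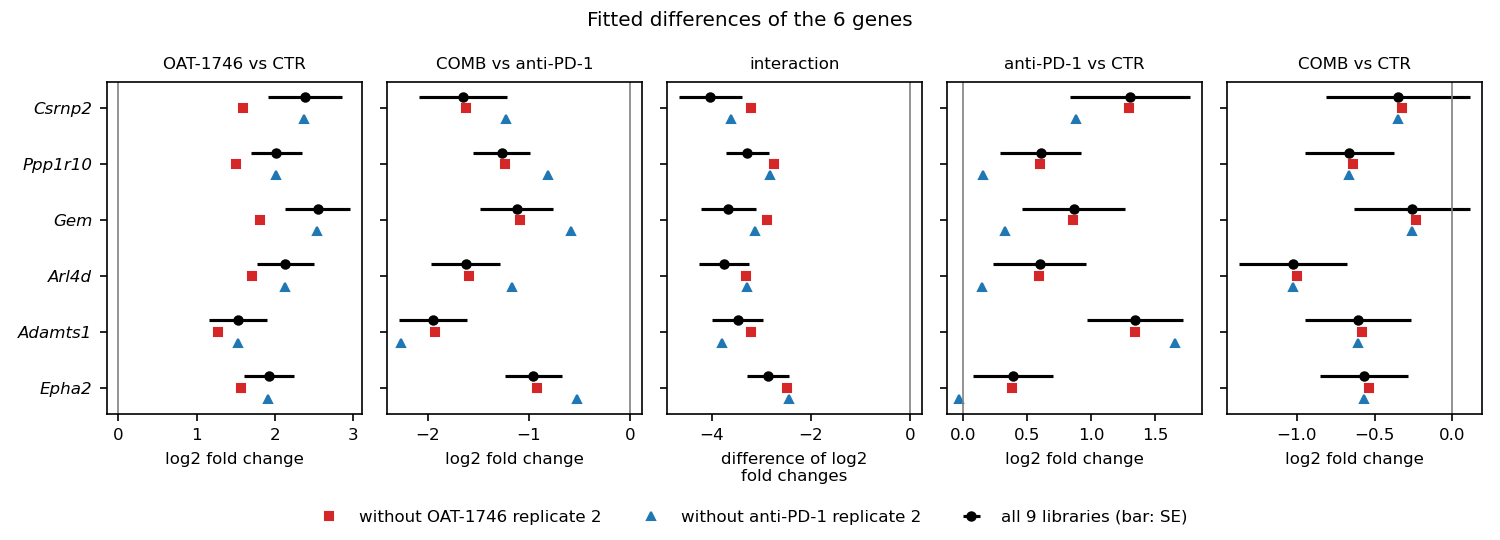
Fitted log2 differences of the 6 genes in 5 contrasts, the first 2 of which chose the genes and set the third, from 9 libraries (black, with SE), without OAT-1746 replicate 2 (red) and without anti-PD-1 replicate 2 (blue). For Epha2 the anti-PD-1 difference from CTR is 0.39 with all libraries and −0.04 without anti-PD-1 replicate 2.

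The antibody alone was not compared with CTR by the rule, but both groups enter it, and the choice favors a low CTR and a high anti-PD-1. The log2 difference of anti-PD-1 from CTR was 1.35 ± 0.37 (SE) for Adamts1 and 1.30 ± 0.47 for Csrnp2, then 0.86 ± 0.40 for Gem, 0.61 ± 0.32 for Ppp1r10, 0.60 ± 0.36 for Arl4d and 0.39 ± 0.31 for Epha2. edgeR's adjusted p was 0.951 for Adamts1, Csrnp2 and Gem, 0.965 for Ppp1r10, 0.967 for Arl4d and 0.968 for Epha2. Both anti-PD-1 libraries lay above both CTR libraries for 4 of the 6 genes (Csrnp2, Ppp1r10, Gem and Adamts1; 20.6% of all tested genes), and nothing is read from this share, as both groups entered the choice. Without anti-PD-1 replicate 2 the differences were 1.66 for Adamts1, 0.88 for Csrnp2, 0.33 for Gem, 0.15 for Ppp1r10, 0.14 for Arl4d and −0.04 for Epha2. The values of Gem, Ppp1r10, Arl4d and Epha2 thus rested mainly on that library, and those of Adamts1 and Csrnp2 did not. edgeR called 0% of all tested genes in this contrast (0 genes, with 642 at an unadjusted p under 0.05 and 11 called by DESeq2). DESeq2's adjusted p was 0.287 for Adamts1 and 0.856 for Csrnp2.

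COMB and CTR are likewise not a contrast of the rule, and the choice favors a low COMB. The log2 difference was −1.03 ± 0.35 (SE) for Arl4d, −0.66 ± 0.29 for Ppp1r10 and −0.61 ± 0.34 for Adamts1. It was −0.57 ± 0.28 for Epha2, −0.35 ± 0.46 for Csrnp2 and −0.26 ± 0.37 for Gem. Leaving out 1 library moved Adamts1 to between −0.95 (without COMB replicate 1) and −0.33 (without COMB replicate 2). Gem then lay between −0.36 (without COMB replicate 2) and −0.14 (without COMB replicate 3). Csrnp2 lay between −0.44 (without CTR replicate 2) and −0.22 (without CTR replicate 1). No COMB library reached the lower CTR library for 6 of the 6 genes (15.8% of all tested genes), and nothing is read from this share, as both groups entered the choice. edgeR's adjusted p ran from 0.740 for Arl4d to 0.894 for Gem. edgeR called 0% of all tested genes (0 genes, with 825 at an unadjusted p under 0.05 and 37 called by DESeq2), and DESeq2's adjusted p for the 6 genes ran from 0.432 for Arl4d to 0.977 for Gem. None of these differences passed the test, and those of Csrnp2 and Gem were smaller than their SE.

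Within groups, the order of the libraries was alike for the 6 genes in OAT-1746 and differed between them elsewhere. OAT-1746 replicate 2 lay above replicate 1 for 6 of 6 genes (50.2% of all tested genes). It was the highest of the 9 libraries for each (30.2% of all tested genes). The rule favors a high OAT-1746 library, and replicate 2 stood apart from the rest, so nothing is read from either share. Anti-PD-1 replicate 2 lay above replicate 1 for 5 of 6 (51.2% of all tested genes), the exception being Adamts1. CTR replicate 2 lay above replicate 1 for 4 of 6 (49.9% of all tested genes), not for Csrnp2 and Ppp1r10. The lowest library was COMB replicate 3 for Ppp1r10, Gem and Epha2, COMB replicate 1 for Csrnp2 and Arl4d, and COMB replicate 2 for Adamts1.

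Over the 9 libraries, the log2 CPM of Csrnp2, Ppp1r10, Gem, Arl4d and Epha2 correlated with each other at a Pearson's r of 0.916 to 0.982. Adamts1 had the lowest, 0.753 with Gem to 0.828 with Csrnp2. Without OAT-1746 replicate 2 these ranges were 0.828 to 0.966 and 0.690 to 0.797. The genes were chosen for a shared order of groups, so these correlations describe how closely they follow it and carry no p-value.

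Genes outside the 6 shared the pattern. Of all tested genes, 29.3% lay above CTR in OAT-1746 and below anti-PD-1 in COMB by sign alone, and 1.66% (208 genes) were so with an unadjusted p under 0.05 in both contrasts. Of these, 195 had a mean of at least 5 CPM. They include 5 of the 6 genes, Csrnp2 being below that level, and 16 genes of the immediate early list. Ordered by the unadjusted p of the interaction, the first 10 were Egr1, Map3k8, Dusp8, Nfkbiz, Errfi1, Midn, Jun, Atf4, Ier2 and Dnajb4. Ppp1r10 followed in place 12, Arl4d in 13, Adamts1 in 20, Epha2 in 21 and Gem in 22. Egr1, Nfkbiz, Jun and Ier2 of the first 10 are on the immediate early list. Dusp8 is a phosphatase of MAP kinases, Map3k8 a kinase upstream of them, Errfi1 an inhibitor of EGF receptor signaling and Atf4 a transcription factor of the CREB/ATF family.

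In the interaction, edgeR called 45 of all tested genes (0.359%), 44 of them lower and Ung, a DNA repair glycosylase, higher (2.97). An unadjusted p under 0.05 was found for 3281, with 1476 higher and 1805 lower, and DESeq2 called 984. The 45 include the 6 genes, which is not a test of them, since the contrasts of the rule make up the interaction. They also include 9 genes of the immediate early list, and 35 of the 45 belong to the 195 genes of the same pattern. The count rested on single libraries. It was 0 without CTR replicate 1, CTR replicate 2, anti-PD-1 replicate 2, COMB replicate 2 or COMB replicate 3, 26 without OAT-1746 replicate 2, 35 without anti-PD-1 replicate 1, 424 without COMB replicate 1 and 2734 without OAT-1746 replicate 1, the last a fit in which the remaining OAT-1746 library is the one that stands apart.

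**Figure D3:**
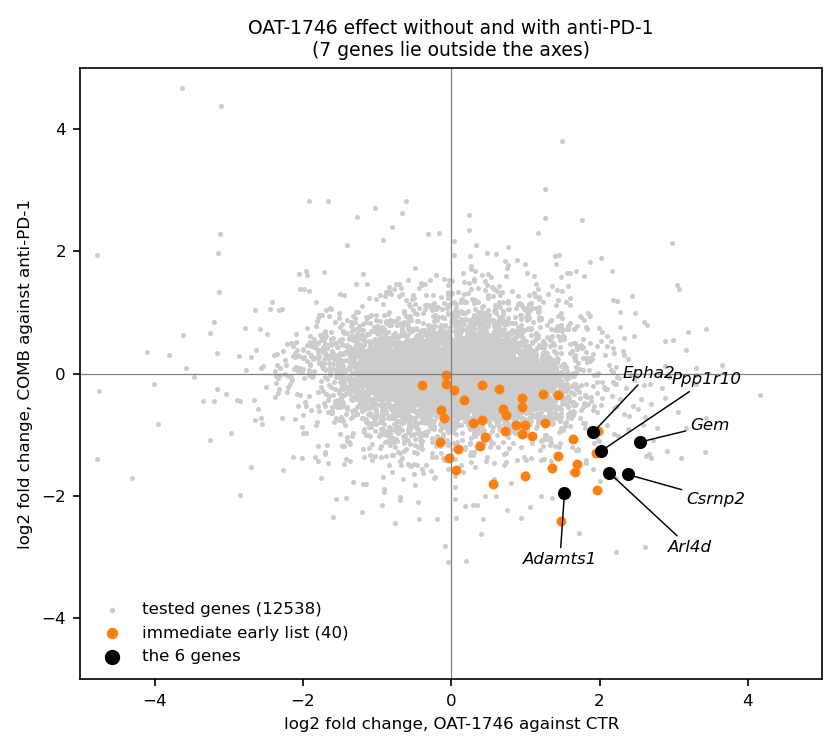
Log2 difference of OAT-1746 from CTR (horizontal axis) against that of COMB from anti-PD-1 (vertical axis) for the tested genes, with the immediate early list in orange and the 6 genes in black; 7 genes lie outside the axes. The 6 genes lie at the lower right, where the rule placed them, and genes of the immediate early list spread from there toward the center.

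The immediate early list shows where the 6 genes sit beside the fast transcriptional response genes they were set apart from. Of its 40 tested genes, 33 lay above CTR in OAT-1746 (21 at an unadjusted p under 0.05, 0 called by edgeR, 19 by DESeq2; of all tested genes 16.1% were higher at that p and 15.4% called by DESeq2), with a median log2 difference of 0.73 against 0.01 for all tested genes, and of 0.42 without OAT-1746 replicate 2. Between COMB and anti-PD-1 40 of 40 were lower (28 at an unadjusted p under 0.05, 0 called by edgeR, 12 by DESeq2; of all tested genes 5.26% were lower at that p and 0.359% called by DESeq2), with a median of −0.89 against −0.01, and without anti-PD-1 replicate 2 it was 33 of 40, with a median of −0.50. In the interaction 38 of 40 were lower (30 at an unadjusted p under 0.05, 9 called by edgeR, 29 by DESeq2; of all tested genes 14.4% were lower at that p and 7.85% called by DESeq2), with a median of −1.57 against −0.02. That median was −1.35 without OAT-1746 replicate 2 (38 of 40 lower) and −1.32 without anti-PD-1 replicate 2 (34 of 40 lower). The median of the 6 genes was 2.07, −1.45 and −3.57 in these contrasts, and the genes were chosen on the first and second of them. It was 1.58, −1.41 and −3.05 without OAT-1746 replicate 2, and 2.07, −0.99 and −3.21 without anti-PD-1 replicate 2.

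The 5 immediate early genes with the lowest interaction values were Fosb (−3.89 ± 0.93, SE), Egr1 (−3.87 ± 0.37), Nfkbiz (−3.27 ± 0.39), Klf4 (−3.26 ± 0.72) and Nfkbid (−3.17 ± 0.61). edgeR's adjusted p was 0.0285 for Egr1 and 0.0289 for Nfkbiz, and 0.0875, 0.0817 and 0.0662 for Fosb, Klf4 and Nfkbid, which did not pass. Without OAT-1746 replicate 2 the values of Fosb, Egr1, Nfkbiz, Klf4 and Nfkbid were −2.55, −3.56, −2.80, −2.23 and −2.14, and without anti-PD-1 replicate 2 they were −2.59, −3.42, −2.89, −2.44 and −2.73. At the other end lay Sik1 (−0.45 ± 0.43), Dusp6 (−0.30 ± 0.24), Btg1 (−0.11 ± 0.32), Ier3 (0.04 ± 0.49) and Socs3 (0.19 ± 0.34). Without OAT-1746 replicate 2 these 5 had −0.32, −0.14, −0.05, 0.09 and 0.19. They had 0.16, −0.38, 0.17, 0.39 and 0.31 without anti-PD-1 replicate 2. Leaving out that library also moved Fosl2 from −0.97 to 0.27, so the genes at this end depend on it. The interaction values of the 6 genes, −4.03 to −2.87, lay near the lowest values of that list. Nothing is read from this place, as the contrasts that make up the interaction chose the 6 genes.

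Fosb, a subunit of AP-1, had 332 and 208 CPM in CTR, 302 and 1203 in OAT-1746, 102 and 399 in anti-PD-1, and 53.4, 43.0 and 44.9 in COMB. Its OAT-1746 and CTR libraries overlapped, which those of the 6 genes did not. Egr1, a zinc finger transcription factor, had 767 and 851 CPM in CTR, 2591 and 3730.0 in OAT-1746, 655 and 1117 in anti-PD-1, and 224, 231 and 256 in COMB. Egr1 was highest in OAT-1746 and lowest in COMB without overlap, as were Ppp1r10, Gem, Arl4d and Epha2, and its COMB libraries lay further below CTR than those of the 6 genes.

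By Pearson's r of log2 CPM over the 9 libraries, among 9418 tested genes with a mean of at least 5 CPM, the 3 genes with the course most like Ppp1r10 included Dusp8 (0.988) and Hbegf (0.988). Those most like Gem included Dusp8 (0.992) and Errfi1 (0.985), and Arl4d was most like Sertad1 (0.983), Midn (0.980) and Errfi1 (0.978). Epha2 was most like Zbtb2 (0.997), Rffl (0.991) and Errfi1 (0.985). Errfi1 appears for 3 of the genes, and Dusp8 for 2. Csrnp2 was most like Sirt1 (0.980), Peli1 (0.978) and Sde2 (0.978), and Adamts1 most like Bcorl1 (0.975), Iqsec1 (0.968) and Zfp526 (0.967), names that no other of the 6 genes shared. Over 8 libraries, without OAT-1746 replicate 2, 3 of the 3 nearest genes of Epha2 were the same, 2 of those of Ppp1r10 and Gem, 1 of those of Arl4d and Adamts1, and 0 of those of Csrnp2. The 9 libraries fall in 4 groups, and a high r over them names no shared role.

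The relatives and partners of the 6 genes were counted from lists that hold 57 such genes, 32 of them tested. In the interaction edgeR called 0 of the 32, against 0.359% of all tested genes. At an unadjusted p under 0.05, 9 were lower (Csrnp1, Rrad, Cyth3, Cyth4, Adamts6, Vcan, Ephb3, Efnb1 and Efnb2) and Ppp1ca was higher, and DESeq2 called 5 (Csrnp1, Rrad, Adamts6, Vcan and Ephb3). Lower at that p were 28.1% of the relatives against 14.4% of all tested genes, and called by DESeq2 15.6% against 7.85%. The median of the relatives was −0.23 against −0.02 for all tested genes, −0.35 without OAT-1746 replicate 2 and −0.67 without anti-PD-1 replicate 2. Between OAT-1746 and CTR 0 were called by edgeR, 9 were higher and 2 lower at an unadjusted p under 0.05 (28.1% and 6.25%, against 16.1% and 16.2% of all tested genes), and DESeq2 called 6 (18.8% against 15.4%). Between COMB and anti-PD-1 edgeR called 0, and 0 were higher and 5 lower at that p. The 5 are 15.6% of the relatives, against 5.26% of all tested genes. DESeq2 called 1 there (3.13% against 0.359%).

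Among the nuclear proteins, Csrnp1, which is itself on the immediate early list, had an interaction of −1.66 ± 0.35 (SE, edgeR adjusted p = 0.0761; −1.33 without OAT-1746 replicate 2 and −1.31 without anti-PD-1 replicate 2), and Csrnp3 had too few counts to be tested. Csrnp1 was far more abundant than Csrnp2, at a mean of 69.1 against 0.789 CPM per kilobase of exon. The partners of Ppp1r10 had values near or above 0. Wdr82 had −0.21 ± 0.20, Tox4 −0.11 ± 0.19, and the catalytic subunits Ppp1ca, Ppp1cb and Ppp1cc 0.88 ± 0.38, 0.12 ± 0.19 and 0.37 ± 0.19 in the interaction. Ppp1ca had 0.54 without OAT-1746 replicate 2 and 0.93 without anti-PD-1 replicate 2. Wdr82 ranged from 79.2 to 100.1 CPM over the 9 libraries, while Ppp1r10 ranged from 60.0 to 524.

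Of the RGK GTPases, Rrad had an interaction of −1.65 ± 0.32 (SE, edgeR adjusted p = 0.0662; −1.27 without OAT-1746 replicate 2 and −1.62 without anti-PD-1 replicate 2), and Rem1 and Rem2 had too few counts. Rrad had 15.5 and 16.9 CPM in CTR, 25.2 and 39.9 in OAT-1746, 20.1 and 20.9 in anti-PD-1, and 14.1, 14.4 and 10.9 in COMB, the same order of groups as Gem over a narrower range. The relatives of Arl4d had smaller values, with −0.09 ± 0.33 for Arl4a and −0.40 ± 0.22 for Arl4c. Of the cytohesins it can recruit, Cyth4 had −0.88 ± 0.28, Cyth3 −0.60 ± 0.24, Cyth2 −0.16 ± 0.19 and Cyth1 0.89 ± 0.46. Cyth4, Cyth3, Cyth2 and Cyth1 had −0.66, −0.43, −0.13 and 0.45 without OAT-1746 replicate 2, and without anti-PD-1 replicate 2 −0.96, −0.77, −0.19 and 1.26. Cyth4 was the most abundant of them, at 76.7 CPM per kilobase of exon.

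Of the list of ADAMTS proteinases with Timp3, their inhibitor, and the substrate Vcan, 8 of 21 genes were tested. Adamts1 was the most abundant of the list, at 6.80 CPM per kilobase of exon, followed by Vcan (1.65). Adamts6 had an interaction of −2.77 ± 0.68 (SE, edgeR adjusted p = 0.0930; −2.71 without OAT-1746 replicate 2 and −2.76 without anti-PD-1 replicate 2) at a mean of only 1.67 CPM. Vcan, which encodes versican, had 19.6 and 19.7 CPM in CTR, 28.1 and 6.41 in OAT-1746, 49.1 and 60.5 in anti-PD-1, and 15.4, 6.34 and 9.93 in COMB. Its anti-PD-1 libraries were the highest, and its OAT-1746 libraries lay on either side of CTR, both unlike Adamts1. Between COMB and anti-PD-1 the log2 difference of Vcan was −2.38 ± 0.52 (SE, edgeR adjusted p = 0.424), and −2.22 without anti-PD-1 replicate 2, and DESeq2 called it.

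Of the Eph receptors 7 of 14 were tested, and Epha2 was by far the most abundant at 19 CPM per kilobase of exon, followed by Ephb3 at 1.34. Ephb3 had an interaction of −1.63 ± 0.41 (SE, edgeR adjusted p = 0.0958; −1.30 without OAT-1746 replicate 2 and −1.50 without anti-PD-1 replicate 2), and the others lay between −0.98 ± 0.73 (Ephb6) and 1.74 ± 1.32 (Ephb1). These others had at most 45 counts in a library. Ephb1 moved to 3.45 and Ephb2 from 1.24 to 2.91 without OAT-1746 replicate 2, and Epha4 from −0.77 to −1.34 without anti-PD-1 replicate 2. Of the ephrins 6 of 8 were tested. The A-type ephrins, which bind Epha2, were scarce, with Efna1 at a mean of 0.321 CPM per kilobase of exon, Efna2 at 0.220 and Efna4 at 0.195. The most abundant ephrin per length was Efnb1 (9.69), with an interaction of −1.07 ± 0.30, and Efnb2 had −1.59 ± 0.47. Both OAT-1746 libraries lay above CTR for Efnb1 and Efnb2 (log2 differences of 1.17 and 1.91, and of 1.03 and 1.76 without OAT-1746 replicate 2), but between COMB and anti-PD-1 they had 0.10 and 0.32, unlike Epha2.

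**Figure D4:**
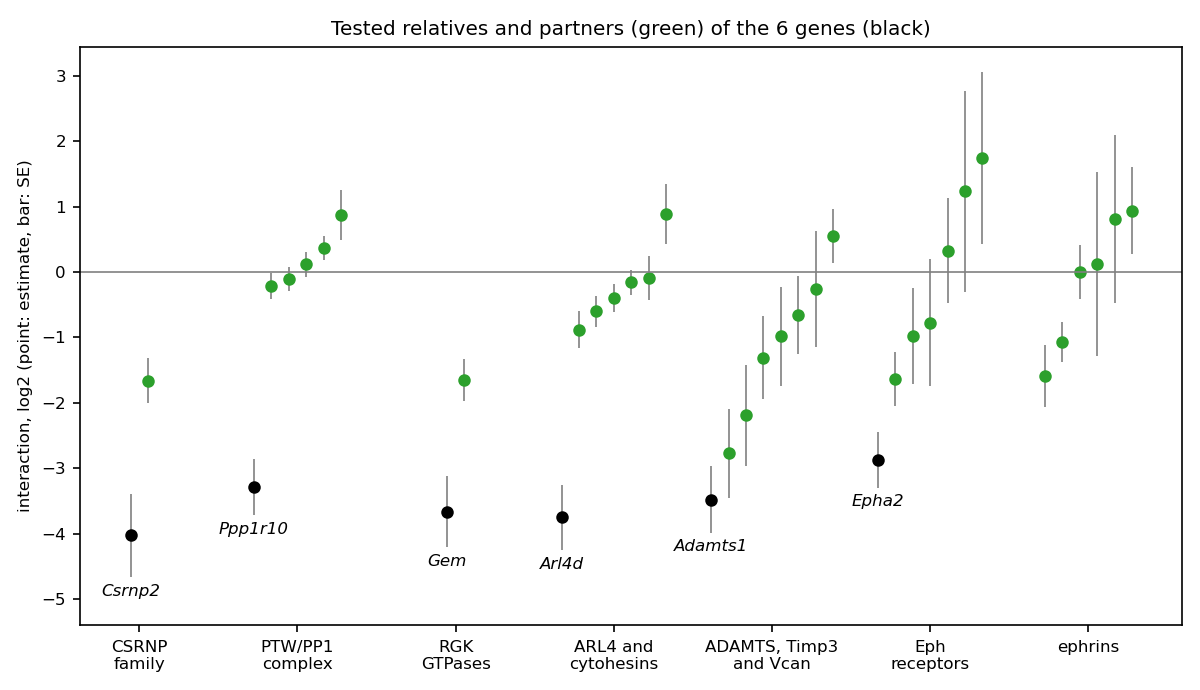
Interaction (log2, with SE) of the tested relatives and partners of the 6 genes, in green, by family, with the 6 genes in black. Each of the 6 has the lowest value of its family, as its selection favors, and Csrnp1, Rrad, Adamts6, Vcan and Ephb3 are the green points that DESeq2 called.

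The CD11b+ label was checked against markers. Itgam, which encodes CD11b, had a mean of 354 CPM, and the sum of 6 pan-myeloid genes ranged from 9541 to 13715 CPM, with Csf1r the most abundant (8148). T cell genes summed to 8.18 to 14.01 CPM, with Cd4 the most abundant (6.93), and 5 glioma genes to 11.02 to 21.1 CPM, with Nes the most abundant (6.00). The 6 oligodendrocyte genes, with Mbp the most abundant (85.1), summed to 184 and 204 CPM in CTR and to 202 and 286 in OAT-1746. Their sums were 214 and 200 CPM in anti-PD-1, and 328, 166 and 215 in COMB. The 9 endothelial genes summed to 159 and 128 CPM in CTR, 155 and 167 in OAT-1746, 205 and 183 in anti-PD-1, and 187, 145 and 172 in COMB, with Flt1 the most abundant (42.9). The endothelial sums of COMB lay within or above those of CTR, and those of anti-PD-1 above both CTR libraries. Between anti-PD-1 and CTR 9 of 9 endothelial genes were higher, with a median of 0.39 (0.78 without anti-PD-1 replicate 2), and between COMB and anti-PD-1 6 of 9 were higher, with a median of 0.19, but 8 of 9 lower without anti-PD-1 replicate 2, with a median of −0.36. In the interaction 7 of 9 were lower, with a median of −0.33, 9 of 9 without anti-PD-1 replicate 2 (−0.49) and 4 of 9 without OAT-1746 replicate 2 (0.32). At an unadjusted p under 0.05 these were 0, 1 higher and 1 lower, and 0 genes, and edgeR and DESeq2 called 0 in each. Between OAT-1746 and CTR 8 of 9 endothelial genes were higher, with a median of 0.31. Of these, 1 had an unadjusted p under 0.05, and edgeR and DESeq2 called 0. Without OAT-1746 replicate 2, 4 of 9 were higher, with a median of −0.13. No gene of these lists was at 3 counts or fewer in every library, and their part in the results was not tested.

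Marker genes of the myeloid cell types also differed between libraries. The 8 microglia genes summed to 12043 and 18872 CPM in CTR, 24658 and 31178 in OAT-1746, 17511 and 14161 in anti-PD-1, and 21668, 16405 and 15331 in COMB. The 8 monocyte and macrophage genes, Tgfbi the most abundant (4016 CPM), summed to 13180 and 11778 CPM in CTR, 8543 and 1792 in OAT-1746, 11319 and 13797 in anti-PD-1, and 9343, 11906 and 12335 in COMB. OAT-1746 replicate 2 thus had the highest microglia sum, the lowest monocyte sum and the highest sum of the 6 genes, 1009 CPM against 198 and 199 in CTR.

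Between OAT-1746 and CTR, 8 of 8 microglia genes were higher at an unadjusted p under 0.05 (0 called by edgeR, 6 by DESeq2), with a median log2 difference of 0.93, and 8 of 8 monocyte and macrophage genes were lower, 5 at an unadjusted p under 0.05 (0 called by edgeR, 4 by DESeq2), with a median of −1.14. Of all tested genes 16.1% were higher and 16.2% lower at that p, and DESeq2 called 15.4%. Without OAT-1746 replicate 2 the medians of the lists were 0.75 and −0.53. Between COMB and anti-PD-1, where the 6 genes had a median of −1.45, the medians of these lists were 0.19 and −0.40, with 0 genes of either list at an unadjusted p under 0.05, 0 called by edgeR and 0 by DESeq2. Without anti-PD-1 replicate 2 they were 0.11 and −0.34. In the interaction 8 of 8 microglia genes were lower (2 at an unadjusted p under 0.05, 0 called by edgeR and 0 by DESeq2), with a median of −0.76, and 7 of 8 monocyte and macrophage genes were higher (1 at an unadjusted p under 0.05, 0 called by edgeR, 1 by DESeq2), with a median of 0.69. Without OAT-1746 replicate 2 these were −0.56 and 0.11, and without anti-PD-1 replicate 2 −0.82 and 0.88. The 6 border macrophage genes had a median of 0.44 between OAT-1746 and CTR (0.40 without OAT-1746 replicate 2). It was −0.07 between COMB and anti-PD-1 (−0.16 without anti-PD-1 replicate 2). In the interaction it was −0.42, −0.36 without OAT-1746 replicate 2 and −0.64 without anti-PD-1 replicate 2. Of these genes edgeR called 0 in each, and DESeq2 2, 0 and 0. The part of these cell types in the levels of the 6 genes was not tested.

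Genes of NK cells also differed between the groups. The 6 NK genes, Gzma the most abundant (38.9 CPM), summed to 32.8 and 29.7 CPM in CTR, 46.7 and 14.4 in OAT-1746, 195 and 101.3 in anti-PD-1, and 41.2, 89.7 and 96.4 in COMB. The anti-PD-1 libraries were the highest, and the OAT-1746 libraries, where the 6 genes were high, lay on either side of CTR. Between COMB and anti-PD-1, 6 of 6 NK genes were lower (2 at an unadjusted p under 0.05, 0 called by edgeR and 0 by DESeq2), with a median of −0.99, and of −1.36 without anti-PD-1 replicate 2. Between anti-PD-1 and CTR their median was 2.32 (6 of 6 higher at an unadjusted p under 0.05, 0 called by edgeR, 2 by DESeq2), and 2.69 without anti-PD-1 replicate 2. Of all tested genes, 3.18% were higher at that p in this contrast and DESeq2 called 0.0877%. In the interaction the NK median was −1.12 (1 at an unadjusted p under 0.05, 0 called by edgeR and 0 by DESeq2), −1.75 without OAT-1746 replicate 2 and −1.44 without anti-PD-1 replicate 2.

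Other lists were counted in the same way. Between OAT-1746 and CTR, 16.1% of all tested genes were higher and 16.2% lower at an unadjusted p under 0.05. Between COMB and anti-PD-1 these shares were 1.98% and 5.26%, and in the interaction 11.8% and 14.4%. DESeq2 called 15.4%, 0.359% and 7.85% of all tested genes in these contrasts. The shares stand beside the counts of the lists above as well. The 8 neutrophil genes had a median of 0.84 between COMB and anti-PD-1 (4 higher and 1 lower at an unadjusted p under 0.05, 0 called by edgeR and 0 by DESeq2), and of 0.39 without anti-PD-1 replicate 2. Between OAT-1746 and CTR 6 of 8 were higher, with a median of 0.75, and of 0.10 without OAT-1746 replicate 2. Of these, 2 had an unadjusted p under 0.05, and edgeR and DESeq2 called 0. In the interaction the neutrophil median was 0.06, 0.85 without OAT-1746 replicate 2 and −0.17 without anti-PD-1 replicate 2. The 5 neuron genes, which summed to 3.17 to 10.9 CPM in a library, had a median of 1.27 between OAT-1746 and CTR (1.14 without OAT-1746 replicate 2), 0.27 between COMB and anti-PD-1 (−0.23 without anti-PD-1 replicate 2) and −1.56 in the interaction (2 lower at an unadjusted p under 0.05, 0 called by edgeR and 0 by DESeq2). That last median was −1.40 without OAT-1746 replicate 2 and −1.58 without anti-PD-1 replicate 2. Between OAT-1746 and CTR 2 neuron genes were higher at an unadjusted p under 0.05, with 0 called by edgeR and 1 by DESeq2. Between COMB and anti-PD-1 0 passed that p and 0 were called by either. The 6 astrocyte genes, with Slc1a3 the most abundant (93.3 CPM), summed to 76.3 and 125 CPM in CTR, to 162 and 226 in OAT-1746, to 110 and 98.6 in anti-PD-1, and to 184, 136 and 142 in COMB. OAT-1746 replicate 2 was the highest, as for the 6 genes, but the COMB libraries lay above those of CTR and anti-PD-1, while the sum of the 6 genes was lowest in COMB. The astrocyte median was 0.41 between OAT-1746 and CTR (0.48 without OAT-1746 replicate 2), 0.65 between COMB and anti-PD-1 (0.44 without anti-PD-1 replicate 2) and 0.22 in the interaction (0.18 without OAT-1746 replicate 2 and 0.24 without anti-PD-1 replicate 2), with 1 higher, 1 higher, and 1 higher and 1 lower at an unadjusted p under 0.05, 0 called by edgeR in each, and 1, 0 and 1 by DESeq2. The 6 pericyte and stromal genes, with Rgs5 the most abundant (13.9 CPM), summed to 22.3 and 20.4 CPM in CTR, to 24.3 and 42.5 in OAT-1746, to 24.2 and 15.5 in anti-PD-1, and to 28.5, 27.8 and 25.0 in COMB. Here too OAT-1746 replicate 2 was the highest and COMB lay above CTR and anti-PD-1. Their median was 0.55 between OAT-1746 and CTR (0.13 without OAT-1746 replicate 2), 0.67 between COMB and anti-PD-1 (0.27 without anti-PD-1 replicate 2) and −0.58 in the interaction (0.01 without OAT-1746 replicate 2 and −0.92 without anti-PD-1 replicate 2), with 1 higher, 1 higher and 1 lower at an unadjusted p under 0.05, 0 called by edgeR in each, and 1, 0 and 0 by DESeq2. The oligodendrocyte median was 0.29 between OAT-1746 and CTR (0.04 without OAT-1746 replicate 2). It was 0.59 between COMB and anti-PD-1 (0.33 without anti-PD-1 replicate 2) and 0.31 in the interaction. That last median was 0.59 without OAT-1746 replicate 2 and 0.05 without anti-PD-1 replicate 2. At an unadjusted p under 0.05 these were 0, 1 higher and 1 lower, and edgeR and DESeq2 called 0 in each. The part of NK cells, neutrophils, neurons, astrocytes, pericytes and oligodendrocytes in the levels of the 6 genes was not tested.

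Heat shock genes, which encode chaperones that cells make under stress, were counted as a list. Of 12 tested, 4 lay above and 8 below CTR in OAT-1746 (3 and 3 at an unadjusted p under 0.05, 0 called by edgeR, 4 by DESeq2), and 10 of 12 lay below anti-PD-1 in COMB (6 of 12 without anti-PD-1 replicate 2; 4 at an unadjusted p under 0.05, 0 called by edgeR and 0 by DESeq2), with medians of −0.35 and −0.43. These were −0.24 without OAT-1746 replicate 2 and −0.13 without anti-PD-1 replicate 2. In the interaction 8 of 12 were lower (4 at an unadjusted p under 0.05, 0 called by edgeR, 2 by DESeq2), with a median of −0.27, and of −0.32 without OAT-1746 replicate 2, but 7 of 12 were higher without anti-PD-1 replicate 2, with a median of 0.23. Of all tested genes, 16.1% were higher and 16.2% lower at an unadjusted p under 0.05 between OAT-1746 and CTR. Lower at that p were 5.26% between COMB and anti-PD-1 and 14.4% in the interaction. DESeq2 called 15.4%, 0.359% and 7.85% of all tested genes in these contrasts. Hspa8 was the most abundant heat shock gene (2236 CPM). Hspa1a, singled out after its values were seen, had 24.9 and 8.23 CPM in CTR, 20.7 and 134 in OAT-1746, 33.7 and 60.1 in anti-PD-1, and 5.41, 6.34 and 6.73 in COMB. Its COMB libraries were the lowest and OAT-1746 replicate 2 the highest, as for the 6 genes, while OAT-1746 replicate 1 lay between the CTR libraries. The part of such a response in the results was not tested.

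**Figure D5:**
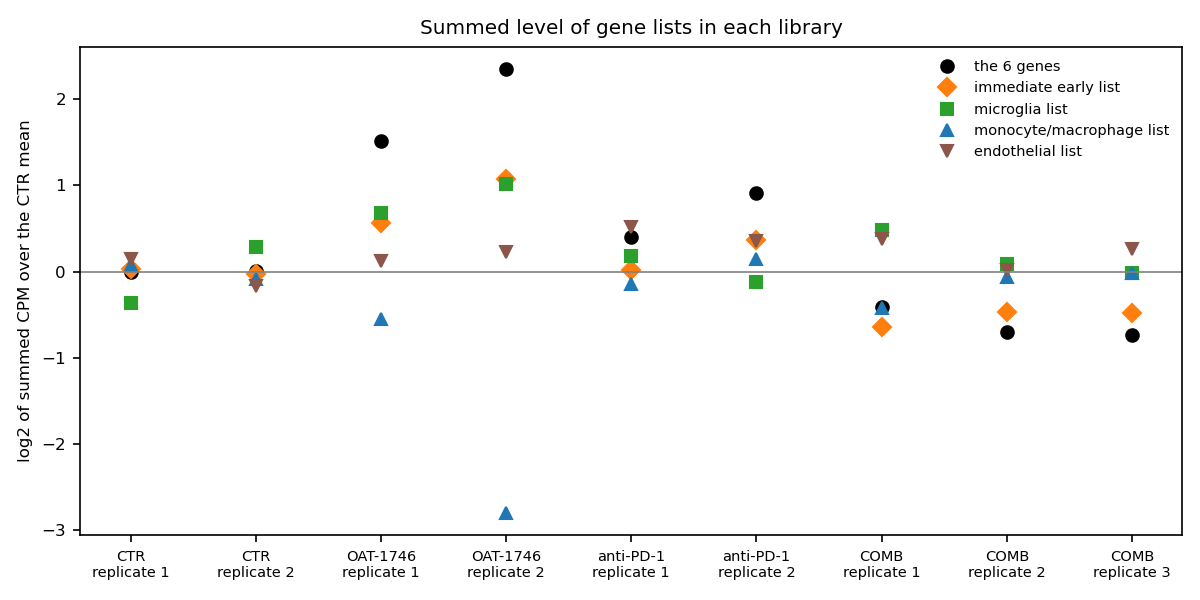
Summed CPM of the 6 genes and of 4 gene lists in each library, as the log2 ratio to the mean of the CTR libraries. The 6 genes and the immediate early list are high in both OAT-1746 libraries and low in the 3 COMB libraries, the monocyte and macrophage list is low in OAT-1746 replicate 2, and the endothelial list is highest in anti-PD-1 replicate 1.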

How the data were processed

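What was deposited for the 9 libraries are raw counts, in read pairs on each gene. By their methods, the authors used Trimmomatic for trimming, STAR for alignment to mm10, Picard for duplicates and HTSeq for strand-specific counting. Nothing was normalized, and 0 columns could not be assigned to a library. Of 53801 genes, 53620 were found in GENCODE M21 (reference chromosomes) and 181 were not (0.0133 to 0.0167% of counts). Only protein-coding genes (21890) were used, of which 12538 passed filterByExpr of edgeR with a minimum count of 10.

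In R 4.3.3, edgeR 4.0.16 fitted TMM-normalized counts of all 9 libraries with a quasi-likelihood model of 4 group means (common biological coefficient of variation 0.214, prior degrees of freedom 4.15), calling genes at a Benjamini-Hochberg adjusted p under 0.05. SE was derived from edgeR's log2 difference and F. CPM are counts scaled to a common library size, log2 CPM used a prior count of 2, and promoters are from RefSeq. The steps were tested on simulated data.

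Alternatives were DESeq2 1.42.0, DESeq2 size factors, library size only, other count filters, all genes, a replicate block and leaving out each library. A group left with 1 library takes its spread from the other groups. An annotation with scaffolds was added after seeing the data.

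The 6 genes and the lists were chosen with earlier results of these data known. Also named were tested genes of their families, the 5 immediate early genes at each end of the interaction, genes among the 3 most correlated with each of the 6, and the first 10 of the same pattern by interaction p (mean of at least 5 CPM, unadjusted p under 0.05 in both contrasts). Python 3.11.15 and matplotlib 3.10.9 made the figures.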

Additional observations from a re-analysis of the deposited data

Results flagged for a closer look

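The 6 genes were chosen for a level above CTR in OAT-1746 and below anti-PD-1 in COMB. The difference of the 2 effects of OAT-1746, with and without the antibody, therefore restates that choice. It was −4.03 for Csrnp2, −3.29 for Ppp1r10, −3.67 for Gem, −3.75 for Arl4d, −3.48 for Adamts1 and −2.87 for Epha2 on the log2 scale. It was not tested, since the genes were chosen by these contrasts.

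Of the other genes named by their list, Egr1 (−3.87) and Nfkbiz (−3.27) are given here because the interaction passed the test over all genes (edgeR adjusted p = 0.0285 and 0.0289). Both calls were lost, with 0 genes called, with the replicate number as a block and without CTR replicate 1, CTR replicate 2, anti-PD-1 replicate 2, COMB replicate 2 or COMB replicate 3. Both belong to the immediate early list, from which they were named for their low interaction values. For each, no CTR library reached the lower OAT-1746 library (30.8% of all tested genes). Nothing is read from this share, as a low interaction value favors it.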

How the results depend on the processing

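The 6 genes had 510 values under the alternatives, over 5 contrasts. Of these, 492 counted as the same, and 17 moved by more than the spread between replicates, each by leaving out a library. The remaining 1 changed sign, the difference of Epha2 between anti-PD-1 and CTR (0.39 in all, −0.037 without anti-PD-1 replicate 2 and 0.72 without replicate 1). In the contrasts of the rule and the interaction, the same meant a move by less than that spread. In anti-PD-1 or COMB against CTR it meant only the same sign and the same call. There, Ppp1r10 between anti-PD-1 and CTR counted as the same at 0.61 in all and 0.15 without anti-PD-1 replicate 2.

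Counts of called genes moved more. DESeq2 called 1925 genes between OAT-1746 and CTR, 45 between COMB and anti-PD-1, 984 in the interaction, 11 between anti-PD-1 and CTR and 37 between COMB and CTR, where edgeR called 0, 0, 45, 0 and 0. Without a low-count filter edgeR called 587 between OAT-1746 and CTR, 2 between COMB and anti-PD-1, 146 in the interaction and 2 between COMB and CTR. The interaction count was 24 with library size only and 18 with all genes. The cause was not tested. Leaving out 1 library gave 0 to 3617 genes between OAT-1746 and CTR, 0 to 52 between COMB and anti-PD-1 and 0 to 2734 in the interaction, each highest without OAT-1746 replicate 1, and edgeR called 0 to 0 in the other contrasts. The scaffold annotation, chosen after seeing the data, gave 45 in the interaction.

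With the replicate number as a block, edgeR called 0 genes in the interaction. Libraries of the same number deviated from their group means with a correlation of −0.349 to 0.0999. In a group of 2 libraries these deviations mirror each other, so the correlations cannot decide whether the number marks a shared batch.

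With 2 libraries in 3 of the 4 groups, 1 library can move a mean by a large share, and 14 to 20 counts in each COMB library limit Csrnp2.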
